A study of Mus musculus with 16 samples.

Results

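Chromatin accessibility was compared in female mouse liver 27 h after an injection of TCPOBOP or of vehicle. The comparison was made up of the peak lists whose peak names and command lines carry the codes G144_M9 and G144_M10 (TCPOBOP) and G144_M7 and G144_M8 (vehicle), which are 4 of the 16 pools of the study. All mice were of the CD-1 strain (Charles River) and 7 weeks of age, and each pool held DNase fragments of 3 to 5 livers. TCPOBOP mice received 3 mg/kg of TCPOBOP by intraperitoneal injection. The vehicle was 1% DMSO in corn oil, and 1% DMSO is listed for the TCPOBOP pools as well as for the vehicle pools. Pools of 3 other experiments were set beside these: 2 TCPOBOP and 2 vehicle pools from 27 h males, 2 TCPOBOP and 2 vehicle pools from 3 h females, and 2 vehicle pools of males at 3 h, whose TCPOBOP pools entered only the shared spread and the presence of peaks. Sexes and times each carry their own experiment code, so that sex, or time, and experiment cannot be told apart, and no vehicle pool is shared between comparisons. Whole liver nuclei were digested, so fewer cells of a type and less accessible DNA per cell cannot be told apart either.

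TCPOBOP is a synthetic ligand that activates the constitutive androstane receptor (CAR, gene Nr1i3), a nuclear receptor of hepatocytes. Activated CAR moves to the nucleus, binds DNA together with the retinoid X receptor and induces genes that oxidise, conjugate and export foreign compounds, of which Cyp2b10 is the best-known target in mice. It also enlarges the liver and lowers genes of glucose production and bile acid synthesis. DNase I cuts chromatin where nucleosomes are displaced, as at active promoters and enhancers, and a DNase-seq peak marks such a site.

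The promoters of 4 genes that lay in changed loci are shown, because a change was measured at or close to each start. They hold the 250 bases before the start, from RefSeq (GRCm38.p6), which is a later build than the mm9 of the peaks, so no peak was placed on these letters. Capitals mark the nuclear receptor half-sites AGGTCA and AGTTCA, searched on both strands (TGACCT and TGAACT on the other strand).
Cyp2b10, chr7:25897408-25897657, plus strand: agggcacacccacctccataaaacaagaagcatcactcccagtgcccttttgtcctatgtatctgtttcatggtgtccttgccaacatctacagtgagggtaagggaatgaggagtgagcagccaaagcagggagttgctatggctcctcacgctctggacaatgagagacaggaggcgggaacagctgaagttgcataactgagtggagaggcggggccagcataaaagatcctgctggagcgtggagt
Cyp3a11, chr5:145879855-145880104, minus strand: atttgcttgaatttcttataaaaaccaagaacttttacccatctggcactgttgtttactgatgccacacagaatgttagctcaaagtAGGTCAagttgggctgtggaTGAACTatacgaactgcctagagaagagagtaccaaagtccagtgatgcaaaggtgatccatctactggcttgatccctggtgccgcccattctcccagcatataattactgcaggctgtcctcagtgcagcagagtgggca
Gadd45b, chr10:80929841-80930090, plus strand: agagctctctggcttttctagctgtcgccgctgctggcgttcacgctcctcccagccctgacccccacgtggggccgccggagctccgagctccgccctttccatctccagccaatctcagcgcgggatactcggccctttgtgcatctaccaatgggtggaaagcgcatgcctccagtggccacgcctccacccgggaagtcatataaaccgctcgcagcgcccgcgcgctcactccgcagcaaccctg
Cyp8b1, chr9:121916306-121916555, minus strand: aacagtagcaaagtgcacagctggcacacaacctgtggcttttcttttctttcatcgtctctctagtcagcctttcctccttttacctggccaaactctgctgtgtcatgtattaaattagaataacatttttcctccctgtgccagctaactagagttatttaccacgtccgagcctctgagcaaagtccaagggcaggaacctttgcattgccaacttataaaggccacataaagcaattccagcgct
AGGTCA was in 14% of all 32851 promoter windows of this length, AGTTCA in 11.8% and either in 24.2%. The Cyp3a11 window held both, 162 and 142 bases before the start, without overlap. The other windows shown held neither, which says only that these letters are not in them.

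The libraries held 25065722 and 30340709 tags after TCPOBOP and 28624325 and 18044366 tags after vehicle. The lists held 40035 and 40337 peaks after TCPOBOP and 37824 and 32596 after vehicle, so vehicle pool 2 had both the fewest tags and the fewest peaks. Peaks that overlapped in any of the 16 lists were joined into 59896 autosomal regions. Of these, 46049 held a peak in at least 1 of the 4 pools and 24993 in all 4, and these 24993 were tested. The value of a region is the highest summit pileup of its peaks, the number of extended tags that cover the summit, per 1000000 tags, scaled so that regions open in every pool had the same median in each. It is called scaled pileup here. The absolute log2 difference of 2 pools of a group had a median of 0.18 for TCPOBOP and 0.24 for vehicle. The spread behind the p-values was estimated from the pairs of pools in all 8 groups of the study.

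Accessibility was higher after TCPOBOP at 980 of the 24993 tested regions (3.92%) and lower at 669 (2.68%), by limma with Benjamini-Hochberg adjusted p under 0.05. The median change was log2 0.97, or 1.95-fold, at the higher regions and -0.90 at the lower ones. Large changes were mostly upward: 442 higher and 205 lower regions changed by at least 1 on the log2 scale, 111 higher and 16 lower by at least 1.5, and 27 higher and 1 lower by at least 2. The higher regions had a median scaled pileup of 3.4 after TCPOBOP and 1.64 after vehicle. The lower regions had 1.60 after TCPOBOP and 3.10 after vehicle. All tested regions had 2.07 after TCPOBOP and 2.05 after vehicle. The higher regions were below that level in vehicle livers and the lower regions above it. The values of these same pools chose the regions, so their levels are a description.

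The pools of the groups did not overlap at any called region. Of all tested regions, both TCPOBOP pools lay above both vehicle pools at 5552 and below them at 6593. Chromosome 6 had the highest share of higher regions, 86 of 1501 (5.73%), and chromosome 2 the lowest, 48 of 1827 (2.63%). Higher calls were 59.4% of all calls, and 65.1% with the 5000 highest regions as the base of centring. Without centring they were 72.0%, with 932 higher and 362 lower calls. Counts here and in the fits that follow are all calls of a fit, and part of them were not called in the main fit. Leaving out vehicle pool 1, TCPOBOP pool 1 or TCPOBOP pool 2 left 614, 505 and 423 higher and 210, 303 and 218 lower calls. On the authors' fold enrichment, which is pileup over the local background of the same library, 45 regions were called higher and 28 lower; 84.4% of the higher and 96.9% of the lower regions kept their direction, with medians of log2 0.29 and -0.37.

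**Figure D1:**
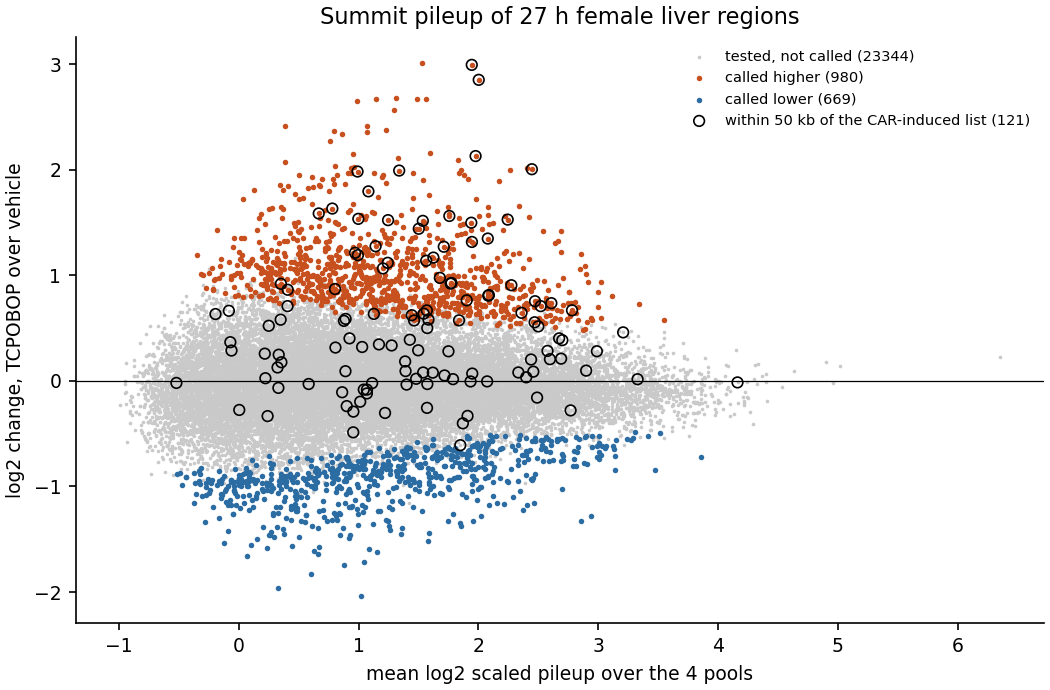
Log2 change in summit pileup (TCPOBOP over vehicle, y axis) against the mean log2 scaled pileup of the 4 pools (x axis) for the 24993 tested regions, with the 121 regions within 50 kb of a gene of the CAR-induced list circled. The 980 higher calls reach further from 0 than the 669 lower ones, with 27 higher regions and 1 lower region beyond 2.

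The largest changes among the loci of the listed genes were at Cyp2b10, the cytochrome P450 used as the marker of CAR activation in mouse liver. Genes were placed on mm9 from general knowledge, and a locus includes 50 kb on each side. The region at the start of Cyp2b10, chr7:26681892-26682863, had a scaled pileup of 9.29 and 12.7 after TCPOBOP and 1.12 and 1.66 after vehicle (log2 2.99 ± 0.23, adjusted p = 5.03e-09; ± is the SE, n = 2 pools each, by limma here and below). Upstream, chr7:26672712-26673610 had 10.7 and 10.9 after TCPOBOP and 1.56 and 1.43 after vehicle (log2 2.85 ± 0.18, adjusted p = 3.29e-11). Between them, chr7:26674300-26675132 had 8.48 and 7.98 after TCPOBOP and 1.63 and 2.17 after vehicle (log2 2.13 ± 0.20). Closer to the start, chr7:26679889-26680779 had 10.7 and 11.1 after TCPOBOP and 2.35 and 3.14 after vehicle (log2 2.00 ± 0.19). At these 4 sites, 4 of the 5 tested at the locus, the lower TCPOBOP pool was above the higher vehicle pool by a wide margin.

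Presence of peaks showed more of the same stretch. A region was counted as gained when both TCPOBOP pools and neither vehicle pool had a peak, which held for 6.0% of the 46049 regions, and as lost in the reverse case, which held for 1.26%. At Cyp2b10, 5 of 17 regions were gained and 1 was lost. The strongest gained one, chr7:26676827-26677554, reached 9.71 and 10.8 after TCPOBOP, as high as its tested neighbours. The lost one, chr7:26687223-26687691, lay inside the gene and had 1.01 and 1.09 after vehicle. By fold enrichment the upstream region chr7:26672712-26673610 changed by log2 -0.09 (adjusted p = 0.941), so the direction there depends on the measure. Cyp2b genes are near copies of each other, as are the Cyp2c, Cyp3a and Gstm genes, and how reads that fit several copies were placed is not stated in the sources used, so their values are uncertain.

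At the Cyp2c genes, which oxidise drugs and fatty acids, most of the change was in peaks that vehicle livers lacked. Cyp2c29 had 11 gained regions of 21, and its only tested region rose. That region, chr19:39361258-39362043, had 6.56 and 6.91 after TCPOBOP and 2.61 and 2.69 after vehicle (log2 1.35 ± 0.20, adjusted p = 4.66e-05). The strongest gained region, chr19:39358788-39359596, reached 7.37 and 8.42 after TCPOBOP, above the tested one, and chr19:39356867-39357740 reached 4.99 and 4.94. Next to these sites a region, chr19:39363512-39363916, was lost, with 2.39 and 1.66 after vehicle. By fold enrichment the tested region was lower after TCPOBOP (log2 -1.31, adjusted p = 0.00248).

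Cyp2c54 had 11 gained regions of 27 and 4 higher of 4 tested, and Cyp2c50 beside it, which shares regions with it, had 10 gained of 25 and 2 higher of 2. Their shared region chr19:40148240-40148620 had 2.76 and 2.74 after TCPOBOP and 1.05 and 0.80 after vehicle (log2 1.59 ± 0.26). Cyp2c55 had 4 gained of 7 and 2 higher of 2, of which chr19:39079578-39080487 had 4.03 and 3.87 after TCPOBOP and 0.833 and 1.2 after vehicle (log2 1.98 ± 0.26). Cyp2c37 had 2 higher of 2, and its region of lowest p, chr19:40065965-40066951, with 3.57 and 2.54 after TCPOBOP and 1.27 and 1.37 after vehicle, was no longer called without vehicle pool 1 or TCPOBOP pool 1.

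**Figure D2:**
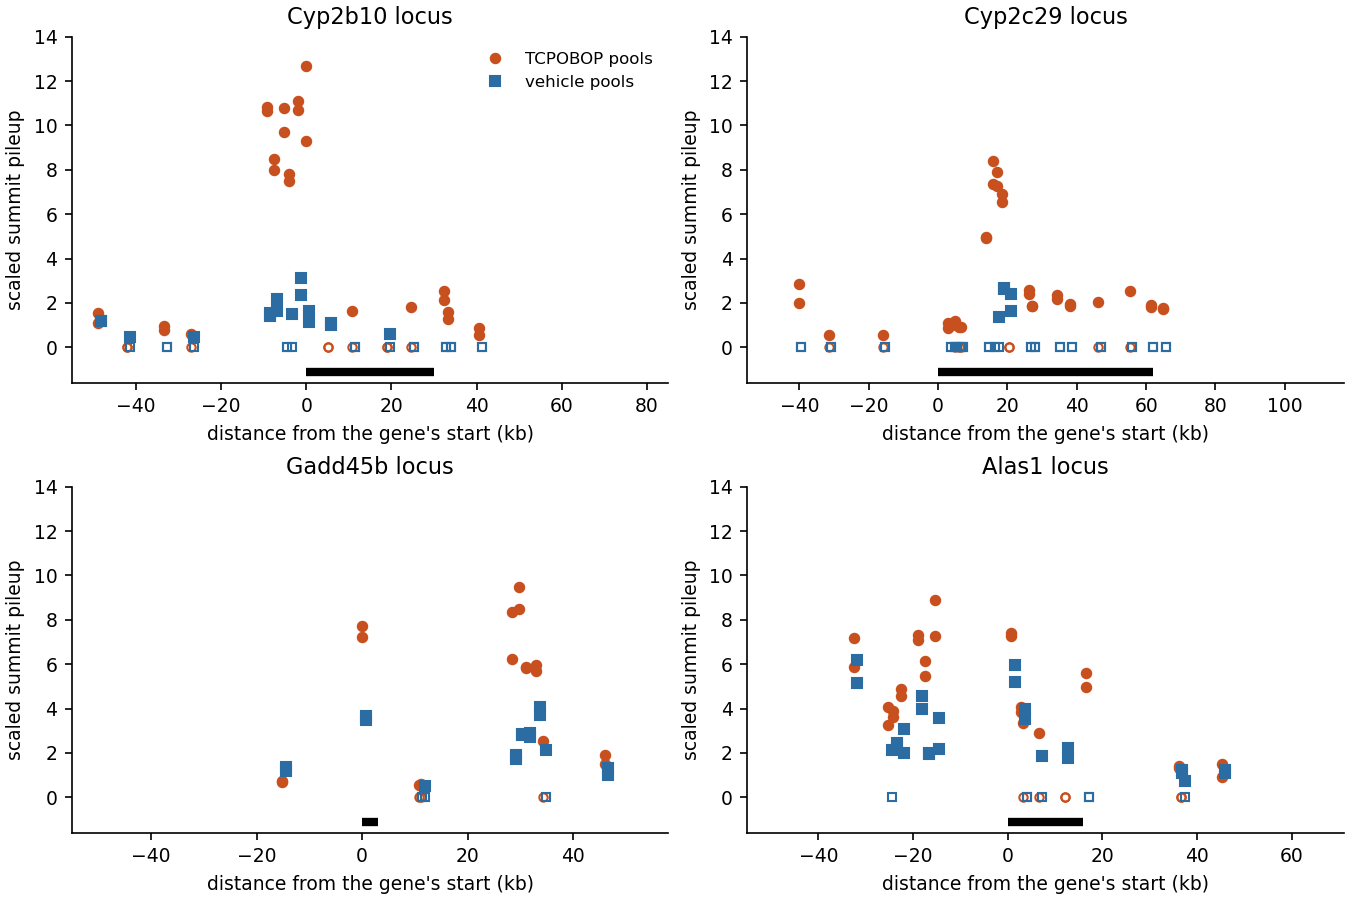
Scaled summit pileup (y axis) of each region against its distance in kb from the start of Cyp2b10, Cyp2c29, Gadd45b and Alas1 (x axis, the gene as a black bar running to the right), with filled circles for TCPOBOP pools, filled squares for vehicle pools and open marks at 0 where a pool had no peak. The TCPOBOP pools stand above the vehicle pools next to the start of Cyp2b10 (up to 12.7), inside Cyp2c29 (up to 8.42), beyond the end of Gadd45b and upstream of Alas1.

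Enzymes that serve all P450s were among the changed loci. Por, the reductase that passes electrons to microsomal P450s, had 5 higher regions of 14. Of these, chr5:136158349-136159308 had 5.64 and 6.55 after TCPOBOP and 2.17 and 2.74 after vehicle (log2 1.32 ± 0.20, adjusted p = 7.41e-05). The strongest Por region, chr5:136164258-136165504, had 17.4 and 18.2 after TCPOBOP and 20.8 and 15.5 after vehicle, with overlapping pools and no call (adjusted p = 0.973). Alas1, the first enzyme of haem synthesis, had 4 higher of 10, all upstream of the gene. There chr9:106167728-106168323 had 5.49 and 6.15 after TCPOBOP and 1.99 and 1.94 after vehicle (log2 1.56 ± 0.21, adjusted p = 1.41e-05), and its neighbour chr9:106165590-106166283 had 7.25 and 8.92 after TCPOBOP and 3.59 and 2.17 after vehicle. The region at the start of Alas1, chr9:106149145-106150558, had 7.25 and 7.41 after TCPOBOP and 5.18 and 5.94 after vehicle, a gap without overlap that missed the threshold (log2 0.40 ± 0.18, adjusted p = 0.197). At the far end of the gene chr9:106133118-106135191 was gained with 4.99 and 5.61 after TCPOBOP, and chr9:106138375-106138863 was lost with 2.21 and 1.77 after vehicle.

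Cyp3a11, the main Cyp3a enzyme of mouse liver, had 5 higher regions of 6. The one at its start, chr5:146691031-146691952, had 6.49 and 6.41 after TCPOBOP and 2.17 and 2.40 after vehicle (log2 1.5 ± 0.22, adjusted p = 5.53e-05). The TCPOBOP pools were nearly equal there and well above the vehicle pools, while by fold enrichment the change was log2 -0.05. Upstream, chr5:146714773-146715479 had 3.42 and 2.61 after TCPOBOP and 1.16 and 1.43 after vehicle (log2 1.21 ± 0.24). Cyp1a1 and Cyp1a2, oxidases of planar compounds, lie back to back and share 1 higher region of 14, chr9:57531073-57532172, with 7.79 and 7.95 after TCPOBOP and 4.20 and 5.31 after vehicle (adjusted p = 0.044). That call was lost in all 4 fits without 1 pool and without a trend in the prior, and by fold enrichment the change was -0.07. Cyp2a4, Cyp2a5, Cyp3a13, the glucuronosyltransferase Ugt1a1 and the exporter Abcc2 had no called region, of 1, 2, 2, 4 and 12 tested.

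Conjugation and export genes had higher regions too. At the glutathione transferase Gsta1, chr9:78064571-78065526 had 3.49 and 3.31 after TCPOBOP and 1.27 and 1.09 after vehicle (log2 1.53 ± 0.18, adjusted p = 1.76e-06). At Gstm1, of the same enzyme family, 3 of 9 regions rose, and chr3:107774805-107775741 had 3.15 and 2.91 after TCPOBOP and 0.833 and 1.14 after vehicle (log2 1.63 ± 0.25). The exporter Abcc4 had 2 of 5, with 4.38 and 4.98 after TCPOBOP and 1.52 and 1.94 after vehicle at chr14:119073068-119074488 (log2 1.44 ± 0.22), and Abcc3 had 2 of 7, with 4.30 and 4.48 after TCPOBOP and 1.74 and 2.29 after vehicle at chr11:94251812-94252848 (log2 1.14 ± 0.22). The aldehyde dehydrogenase Aldh1a7 had 2 of 4, with 3.61 and 4.31 after TCPOBOP and 1.41 and 0.914 after vehicle at chr19:20818912-20819918 (log2 1.80 ± 0.21). Its relative Aldh1a1 had 2 of 7, with 7.06 and 6.21 after TCPOBOP and 3.59 and 3.49 after vehicle at chr19:20629547-20630489 (log2 0.91 ± 0.17), where the fold enrichment changed by -0.18. In each of these, as at every higher call, the lowest TCPOBOP pool was above the highest vehicle pool.

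Tsku, the gene of a secreted leucine-rich protein, had 6 higher regions of 8 and 2 gained. Inside it chr7:105509360-105510344 had 4.64 and 5.48 after TCPOBOP and 1.34 and 1.2 after vehicle (log2 1.99 ± 0.20, adjusted p = 9.93e-08), and chr7:105506532-105507212 was gained with 5.18 and 6.58 after TCPOBOP. Counting all 24 placed genes of the CAR-induced list, 44 of 121 tested regions rose (36.4%, against 3.92% of all tested regions), at 19 genes. Of the 121, 0 fell (against 2.68% of all). The median change was log2 0.40, against -0.04 over all tested regions. At an unadjusted p under 0.05, 61 were higher and 3 lower. The share of all tested regions at that threshold was not worked out, so such counts are a description here and below. Of their 265 regions with a peak, 47 were gained (17.7%) and 4 lost. The list holds known targets of CAR and was taken up with results of these pools known, so its direction is a description.

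At genes of growth and stress 10 of 31 tested regions rose (32.3%, against 3.92% of all tested regions) and 0 fell (against 2.68% of all), while 15 were higher and 2 lower at an unadjusted p under 0.05, with a median of log2 0.48. Gadd45b, a stress protein that acts as a coactivator of CAR in mouse liver, had 4 of 7. The region at its start, chr10:80391372-80393216, had 7.71 and 7.25 after TCPOBOP and 3.66 and 3.49 after vehicle (log2 1.07 ± 0.17, adjusted p = 0.000195). Downstream, chr10:80420505-80421154 had 6.22 and 8.35 after TCPOBOP and 1.74 and 1.89 after vehicle (log2 1.99 ± 0.19, adjusted p = 9.42e-08), and chr10:80421722-80422333 had 9.48 and 8.48 after TCPOBOP and 2.83 and 2.86 after vehicle (log2 1.66 ± 0.16). Gadd45a, its relative, had 2 of 5, with 5.87 and 5.51 after TCPOBOP and 3.26 and 3.60 after vehicle at chr6:66985431-66987898 (adjusted p = 0.00556). Ccnd1, the cyclin of entry into the cell cycle, had 2 of 3, with 4.61 and 6.11 after TCPOBOP and 2.90 and 2.86 after vehicle at chr7:152113464-152114719 (adjusted p = 0.0121). Cdkn1a, which inhibits cell-cycle kinases, had 2 of 7, with 1.57 and 2.20 after TCPOBOP and 0.761 and 0.914 after vehicle at chr17:29194830-29195932 (adjusted p = 0.00958). These calls at Gadd45a, Ccnd1 and Cdkn1a were lost in 2 or 3 of the 4 fits without 1 pool: at Gadd45a without vehicle pool 1 or TCPOBOP pool 1, at Ccnd1 without either vehicle pool or TCPOBOP pool 2, and at Cdkn1a without vehicle pool 1 or TCPOBOP pool 2. Myc, a transcription factor of growth, had no call among 3 regions, the closest with 3.19 and 3.31 after TCPOBOP and 2.32 and 1.89 after vehicle (adjusted p = 0.0521), and Mdm2, which degrades p53, none among 6.

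At glucose and bile acid genes 5 of 53 regions fell (9.43%, against 2.68% of all tested regions) and 2 rose (3.77%, near the 3.92% of all), with a median of log2 -0.14. At Pck1, a rate-setting enzyme of glucose production, 2 of 7 fell, and chr2:172984634-172986165 had 2.92 and 2.34 after TCPOBOP and 6.48 and 6.17 after vehicle (log2 -1.28 ± 0.23, adjusted p = 0.000462). Close to the start of Cyp8b1, the enzyme that makes cholic acid, chr9:121824908-121825794 had 1.84 and 1.60 after TCPOBOP and 3.48 and 4.23 after vehicle (log2 -1.16 ± 0.19, adjusted p = 0.000256), and elsewhere at the locus chr9:121860654-121862295 rose, with 2.30 and 1.94 after TCPOBOP and 1.49 and 1.03 after vehicle (adjusted p = 0.0465). Cyp7a1, the rate-limiting enzyme of bile acid synthesis, had 2 of 6 lower. Of these, chr4:6189422-6190541 had 1.88 and 2.07 after TCPOBOP and 4.17 and 2.80 after vehicle (log2 -0.79 ± 0.21, adjusted p = 0.0214). That Cyp7a1 call was lost without centring, without vehicle pool 1 and without either TCPOBOP pool, and by fold enrichment the change was 0.01. Nr0b2, the gene of a repressor of bile acid synthesis, had 1 higher of 9, chr4:133118910-133119637, with 7.18 and 7.75 after TCPOBOP and 4.49 and 3.60 after vehicle (log2 0.89 ± 0.17, adjusted p = 0.000774) and a change of -0.10 by fold enrichment. At G6pc, which releases free glucose, and at Nr1i3 itself, none of 10 and 11 regions was called.

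Genes that differ between the sexes in liver had 1 call in each list. Of 14 regions of female-biased genes 1 fell (7.14%, against 2.68% of all tested regions) and 0 rose, while 3 were lower and 0 higher at an unadjusted p under 0.05, with a median of log2 -0.15. It was at Cux2, a transcription factor, with 2.53 and 2.17 after TCPOBOP and 4.13 and 4.63 after vehicle at chr5:122288360-122289340 (adjusted p = 0.00854), and was lost without vehicle pool 2 or TCPOBOP pool 2. Of 22 regions of male-biased genes 1 rose (4.55%, against 3.92% of all) and 0 fell, while 5 were higher and 0 lower at an unadjusted p under 0.05, with a median of 0.26. It was at the transporter Slco1a1, chr6:141910350-141911486, with 6.53 and 6.75 after TCPOBOP and 3.88 and 4.34 after vehicle (adjusted p = 0.00982), and was lost without vehicle pool 1 or either TCPOBOP pool.

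Alb, Ttr, Apoa1 and Hnf4a, genes of hepatocytes, had 40 tested regions, of which limma called 0, with a median of log2 -0.02. At an unadjusted p under 0.05, 5 were lower and 0 higher. There is no share of all tested regions at that threshold to set beside these. By lowest p the closest of them were at Ttr (adjusted p = 0.0557) and Hnf4a (adjusted p = 0.0601). Loci of other liver cells had 0 calls among 9 immune, 12 endothelial and 2 stellate regions, of which 1 endothelial region had an unadjusted p under 0.05, set beside 3.92% of all tested regions called higher and 2.68% lower. Of 5 cholangiocyte regions 1 rose, at Sox9, with 4.80 and 5.41 after TCPOBOP and 3.19 and 2.74 after vehicle at chr11:112593308-112594384 (adjusted p = 0.00556), and that call was lost without vehicle pool 2 or TCPOBOP pool 2. The Krt19 locus had no peak. The 5 cholangiocyte regions summed to 14.4 and 13.8 after TCPOBOP and 11.9 and 13.1 after vehicle, and their part in the other results was not tested. The summed pileup of the immune regions was 35.2 and 36.7 after TCPOBOP and 38.8 and 37.9 after vehicle, and that of the endothelial regions 44.1 and 44.2 after TCPOBOP and 44.8 and 44.4 after vehicle.

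**Figure D3:**
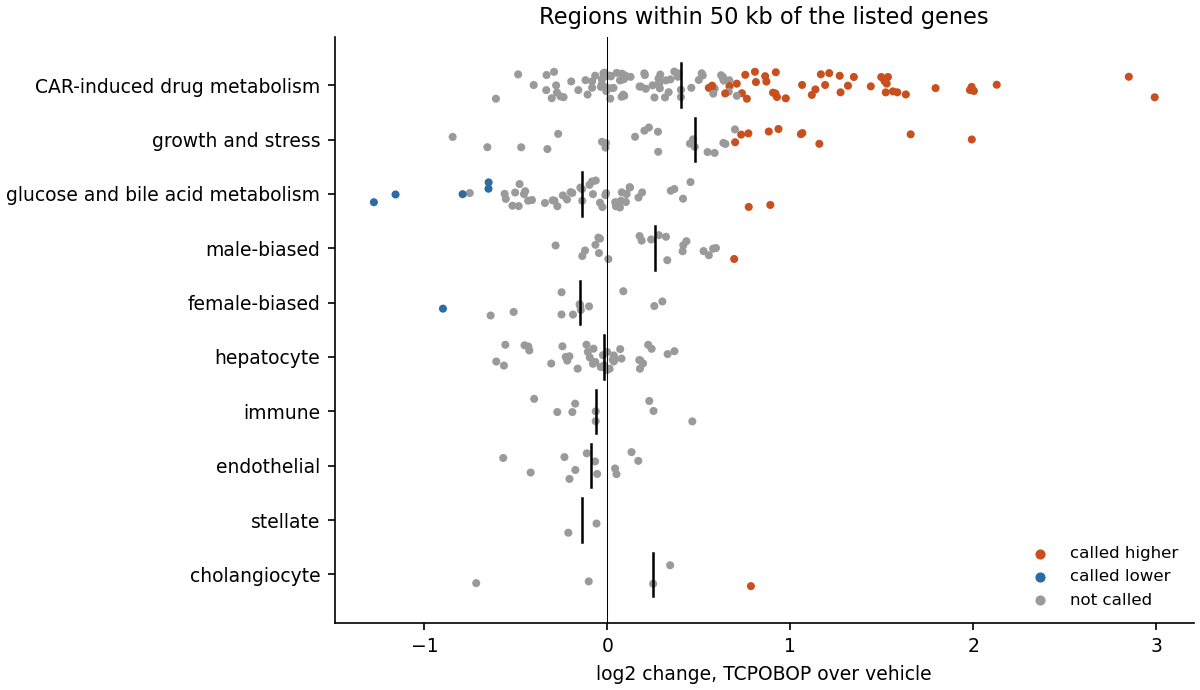
Log2 change in summit pileup (TCPOBOP over vehicle, x axis) of every tested region within 50 kb of the genes of 10 lists (rows), with called regions in colour and the median of a list as a black bar. The growth and CAR-induced lists have medians of 0.48 and 0.40, the hepatocyte list -0.02.

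Most of the largest changes lay outside the listed loci. They were taken from the 297 of 980 higher and 85 of 669 lower regions that were called in all 4 fits without 1 pool. The largest rise was at chr18:68650572-68651869, with 6.72 and 9.95 after TCPOBOP and 0.906 and 1.14 after vehicle (log2 3.01 ± 0.21, adjusted p = 1.73e-10). The pools within each group differed there by less than the gap between groups. After the pair at Cyp2b10 came chr16:44270558-44271727, with 6.64 and 5.94 after TCPOBOP and 0.942 and 1.03 after vehicle (log2 2.67 ± 0.28), and chr4:10899526-10901232, with 7.83 and 6.41 after TCPOBOP and 0.724 and 1.71 after vehicle (log2 2.67 ± 0.30). At the second of these the vehicle pools were far apart from each other. Next, chr4:24547230-24548340 had 5.60 and 5.58 after TCPOBOP and 0.797 and 0.972 after vehicle (log2 2.67 ± 0.22) and chr5:123148150-123148999 had 5.07 and 4.88 after TCPOBOP and 0.688 and 0.914 after vehicle (log2 2.65 ± 0.22). The other members of the 12 rose by log2 2.38 to 2.67.

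Lower regions changed less. The largest fall was at chr17:85049609-85050365, with 1.04 and 0.969 after TCPOBOP and 5.40 and 3.14 after vehicle (log2 -2.04 ± 0.31, adjusted p = 8.30e-05). It was the only lower region beyond log2 -2. At chr18:12016561-12017233 pileup was 0.806 and 0.501 after TCPOBOP and 2.39 and 2.57 after vehicle (log2 -1.96 ± 0.30), and at chr6:49115751-49116709 it was 0.844 and 0.768 after TCPOBOP and 3.33 and 2.46 after vehicle (log2 -1.83 ± 0.28). As at every lower call, both TCPOBOP pools were below both vehicle pools at all 12 of the largest falls. The other 9 of these were between log2 -1.75 and -1.56.

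**Figure D4:**
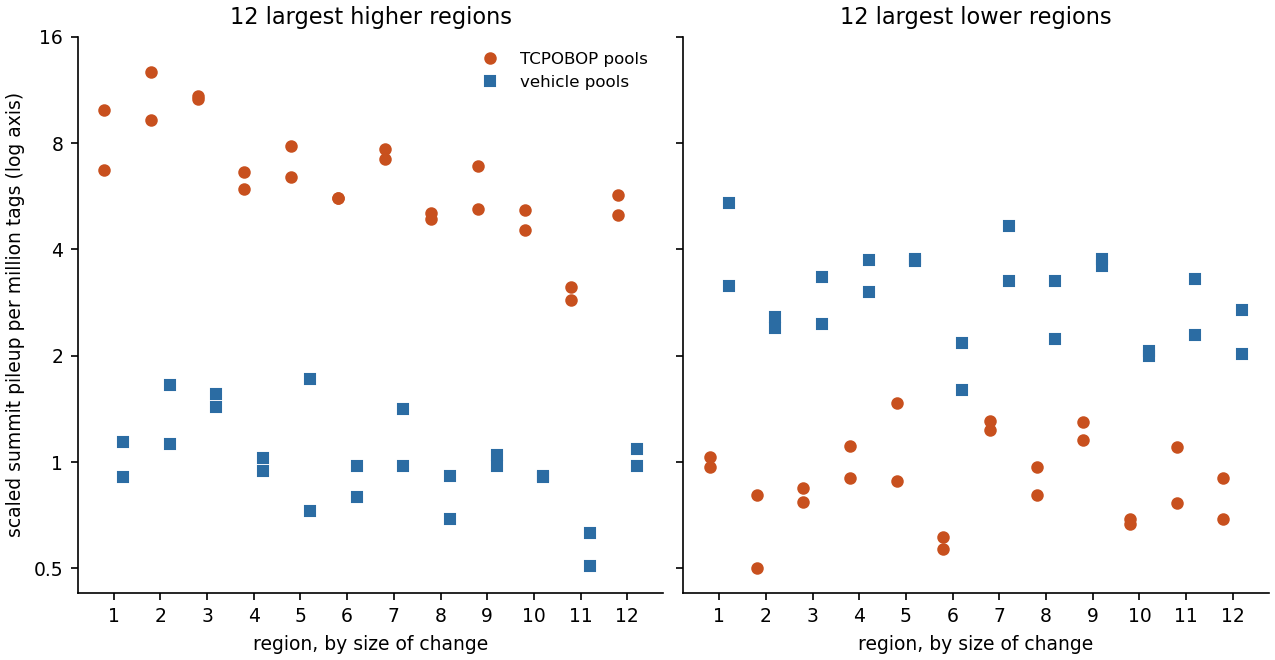
Scaled summit pileup (y axis, log axis) of each pool at the 12 largest higher (left) and the 12 largest lower regions (right), ordered by size of change along the x axis, with circles for TCPOBOP pools and squares for vehicle pools. The pairs are apart at every region, as at all called regions. The gap on the left, up to log2 3.01, is wider than on the right, up to -2.04.

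Called regions often stood alone: 550 of the 980 higher (56.1%) and 444 of the 669 lower (66.4%) had no other region of the same call within 50 kb. The rest included 48 runs of 3 or more higher regions and 22 of lower ones. The longest, chr13:21973580-22143338, had 10 higher of 14 tested, with a median of log2 1.13. Further along, chr13:23492618-23611611 had 7 of 10, with a median of 0.92. By general knowledge of mm9 both lie in the histone gene cluster of chromosome 13, which codes for the proteins that package newly copied DNA and holds near-identical genes. The most changed region of the first, chr13:22010619-22011563, had 2.88 and 3.14 after TCPOBOP and 0.507 and 0.629 after vehicle (log2 2.41 ± 0.22, adjusted p = 2.28e-08), and chr13:22031982-22033209 had 7.91 and 7.25 after TCPOBOP and 2.75 and 2.86 after vehicle (log2 1.43 ± 0.16).

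Other runs of 7 were chr6:87139497-87228032, with 7 of 7 higher and a median of log2 1.31, and chr6:108398124-108485290, with 7 of 8 and a median of 1.58. The run that includes Tsku, chr7:105495896-105572430, had 8 of 9 higher with a median of 1.22, and the one that includes Gadd45b, chr10:80391372-80449905, had 5 of 7 with a median of 1.37. Among lower regions the longest runs were chr17:29521713-29626177, with 8 of 11 and a median of log2 -0.83, and chr5:139834575-139875031, with 6 of 7 and a median of -0.92. The run chr7:35907271-35920118 had 5 of 5, with a median of -1.16, and 3 runs of 4 were chr12:111462292-111483326, chr18:11986897-12017233 and chr8:96695935-96707475.

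Peaks were gained more often than lost. Of the 33683 peaks that the TCPOBOP pools shared, 3260 overlapped no vehicle peak (9.68%, 95% Clopper-Pearson interval 9.36 to 10, for counting error only). Of the 27998 that the vehicle pools shared, 661 overlapped no TCPOBOP peak (2.36%, 2.19 to 2.55). With all 4 lists cut to equal length these were 1875 and 1152, and without vehicle pool 2, the shallowest, they were 4342 and 3740. Leaving out vehicle pool 1, TCPOBOP pool 1 or TCPOBOP pool 2 gave 6763, 6553 and 6584 gained and 1728, 1353 and 1510 lost. Among the 20000 highest-ranked peaks of each pool, 235 were gained (1.32%, 1.16 to 1.5) and 33 lost (0.191%, 0.131 to 0.268). Without vehicle pool 1, TCPOBOP pool 1 or TCPOBOP pool 2 the strong gained peaks numbered 546, 408 and 429, and the strong lost ones 124, 86 and 82, or 126 without vehicle pool 2.

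Gained regions were mostly weak. Their share with a peak elsewhere in the study was near that of all regions, and fewer of them had one in the other vehicle pools. The 2764 gained regions had a median scaled pileup of 0.812, and the 581 lost ones 0.863. Of the gained, 1882 (68.1%) had a peak in at least 1 of the 6 vehicle pools of other experiments, against 84.5% of all 46049 regions, and 317 (11.5%) had no peak in any of the 12 other pools, against 10.4% of all. In 27 h males 342 of the gained regions were gained as well (12.4%, against 1.64% of all) and 30 were lost (1.09%, against 1.43% of all). Another 920 (33.3%, against 65.5% of all) had a peak in all 4 pools. In 3 h females 274 were gained (9.91%, against 2.81% of all) and 11 were lost (0.398%, against 0.662% of all). A peak in all 4 pools was present at 249 (9.01%, against 48.0% of all). Of the lost, 490 (84.3%, against 84.5% of all) had a peak in another vehicle pool and 66 (11.4%, against 10.4% of all) none elsewhere. In 27 h males 53 of the lost regions were lost as well (9.12%, against 1.43% of all) and 6 were gained (1.03%, against 1.64% of all). In 3 h females 13 of them were lost (2.24%, against 0.662% of all) and 18 were gained (3.10%, against 2.81% of all). Of the strong gained peaks 6 of 235 had no peak elsewhere, and of the strong lost ones 4 of 33.

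The 6 strong gained peaks ranked highest by the authors' −log10 q each had a peak in 5 or 6 of the other 6 TCPOBOP pools. The first, chr14:20954198-20955082, with 5.87 and 5.08 after TCPOBOP, had a peak in all 6 of the other TCPOBOP pools and in 1 other vehicle pool. At chr17:79037702-79038835, with 4.64 and 5.08, a peak was present in 5 of the other TCPOBOP pools and in no other vehicle pool. At chr4:25298813-25299549, with 3.53 and 2.94, it was present in all 6 and in 1 vehicle pool, of 27 h males. At chr12:14216227-14217372, with 3.84 and 3.64, it was present in all 6 and in no other vehicle pool. At chr6:85876779-85878285, the highest of them with 6.03 and 6.85, it was present in all 6 and in both vehicle pools of 27 h males, and at chr18:33553385-33554643, with 2.88 and 2.47, in 5 and in no other vehicle pool. The strong lost peaks ranked highest were chr2:7181655-7182381, with 1.34 and 1.89 after vehicle, and chr4:127198927-127199783, with 1.2 and 1.60, and both had a peak in all 12 other pools. Those at chr11:93998066-93999445, with 5.98 and 5.94 after vehicle, and chr3:59902341-59902857, with 2.64 and 3.60, had a peak in 9 other pools each, and that at chr19:36700157-36700727, with 2.17 and 2.40, in 4. The lost peak chr7:31709157-31709778, with 1.74 and 1.31 after vehicle, had none elsewhere.

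Males at 27 h changed in the same direction at most of the female regions, by less. Of the 953 higher regions that could be tested in males, 94.9% had a positive change there, against 49.0% of all regions tested in both, and 292 were called higher, against 1.80% of all male regions. That is 30.6% of the female regions and 78.9% of the 370 male ones tested in both. Of 630 lower regions 90% had a negative change in males and 47 were called lower, against 0.410% of all male regions, which is 7.46% of the female and 51.1% of the 92 male ones. By limma 0 of either set were called in the opposite direction. Over these sets the median change was log2 0.56 in males and 0.96 in females at higher regions, and -0.34 in males and -0.90 in females at lower ones. The female values chose these regions, so the difference of medians is a description.

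Of the 44 higher regions of the CAR-induced list, 28 of 44 tested were called higher in 27 h males, with a median of log2 0.84 there and 1.18 in 27 h females, and 17 of 34 tested in 3 h females, with a median of 0.83 there and 1.13 in 27 h females. All of those tested had a positive change in both. The 27 h female values chose these regions, so the differences of medians are a description. Those of lowest p at Cyp2c54, Aldh1a1, Gstm1, Abcc3 and Cyp1a1 were not called in males, and those at Gsta1, Abcc4 and Cyp1a1 not at 3 h. At chr7:26672712-26673610, upstream of Cyp2b10, the change was log2 2.85 ± 0.18 in 27 h females, 2.18 ± 0.18 in 27 h males and 3.12 ± 0.18 in 3 h females, and the differences did not pass the test (adjusted p = 0.845 and 0.766). At the start of Cyp3a11 it was 1.5 ± 0.22 in 27 h females, 1.49 ± 0.22 in 27 h males and 1.26 ± 0.22 in 3 h females. At the start of Gadd45b it was 1.07 ± 0.17 in 27 h females, 0.83 ± 0.18 in 27 h males and 0.10 ± 0.18 in 3 h females, where the difference between times missed the threshold (adjusted p = 0.0892). Downstream of Gadd45b, chr10:80420505-80421154 rose by 2.51 ± 0.19 in 27 h males, and at 3 h it had 13 and 9.16 in the female TCPOBOP pools and no peak in the female vehicle pools, so that it was not tested at 3 h. Of the 5 lower regions of the glucose and bile acid list 0 were called in either experiment, by limma. In 27 h males 3 of the 5 had a negative change, with a median of log2 -0.15. In 3 h females 4 of the 5 did, with a median of -0.49, against -0.79 in 27 h females. At the Cyp7a1 region of lowest p the male change was positive (log2 0.28 ± 0.21). At Pck1 the change was -1.28 ± 0.23 in 27 h females, -0.51 ± 0.23 in 27 h males and -0.66 ± 0.23 in 3 h females, and the differences did not pass the test (adjusted p = 0.91 and 0.489).

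The difference of the 2 changes was tested itself, and passed at 2 of 23741 regions (0.00842%), while 1215 had an unadjusted p under 0.05. Both were on chromosome 12, with a positive change in females. The male change was called at neither. It was log2 0.47 ± 0.19 at the first (adjusted p = 0.264) and -1.03 ± 0.34 at the second (adjusted p = 0.133). At chr12:63870068-63871129 the female 27 h pools had 7.68 and 7.21 after TCPOBOP and 1.41 and 0.972 after vehicle, and the male pools 8.22 and 6.43 after TCPOBOP and 5.63 and 4.87 after vehicle (difference log2 2.19 ± 0.26, adjusted p = 8.76e-05). The female 27 h vehicle pools were the lowest of the vehicle pools there. The female 3 h vehicle pools had 3.17 and 3.58 and the male 3 h vehicle pools 4.67 and 5.35. At the second region the female 27 h vehicle pools were again the lowest. The female 3 h vehicle pools had 4.35 and 7.84 there, and the male 3 h vehicle pools 3.11 and 6.23. At chr12:64118600-64119481 the female 27 h pools had 7.79 and 6.91 after TCPOBOP and 1.12 and 2.63 after vehicle, and the male pools 1.76 and 3.43 after TCPOBOP and 6.29 and 4.02 after vehicle (difference log2 3.13 ± 0.48, adjusted p = 0.00614), a call lost without vehicle pool 1 or TCPOBOP pool 1.

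Females at 3 h had fewer calls in all, in libraries of 16216180 to 20704920 tags, and the part of depth in this was not tested. Of 826 higher regions tested there, 86.3% had a positive change, against 51.3% of all regions tested in both, and 161 were called higher, against 1.21% of all 3 h regions, which is 19.5% of the 27 h regions and 66.8% of the 241 called at 3 h and tested at both times. Their median change at 3 h was log2 0.41. The 27 h values chose these higher regions and the lower ones, so their medians at 3 h are a description. Of 554 lower regions 65.3% had a negative change and 4 were called lower, against 0.0536% of all, which is 0.722% of the 27 h regions and 36.4% of the 11 at 3 h, with a median of -0.12. The difference between the times passed at 36 of 19677 regions (0.183%), while 2171 had an unadjusted p under 0.05. Of the 36, 21 were called higher at 27 h, 14 were called lower, and 1 was not called, at G6pc. There chr11:101239881-101241039 had 4.07 and 3.54 after TCPOBOP and 4.24 and 5.14 after vehicle at 27 h and 6.32 and 5.73 after TCPOBOP and 3.63 and 3.32 after vehicle at 3 h (difference log2 -1.09 ± 0.23, adjusted p = 0.0436). Without TCPOBOP pool 1, and likewise without TCPOBOP pool 2, 5 differences passed.

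The histone stretches held 5 of these 36 differences. In the run of 10, the 9 regions that could be tested at 3 h had a median change of log2 0.05 there, with 1 called higher, and 9 could be tested in males at 27 h, with a median of 0.67 and 5 called higher. In the run of 7 the median at 3 h was -0.03 with 0 called, and over the 6 tested in males 0.43 with 0 called. At chr13:22010619-22011563 the female 3 h pools had 2.73 and 4.02 after TCPOBOP and 3.36 and 2.70 after vehicle (difference log2 2.28 ± 0.31, adjusted p = 0.000692). The male 27 h pools had 3.05 and 3.49 after TCPOBOP and 1.30 and 1.17 after vehicle and the male 3 h vehicle pools 3.25 and 4.4. At chr13:22031982-22033209 the female 3 h pools had 4.45 and 5.30 after TCPOBOP and 5.14 and 4.39 after vehicle (difference log2 1.40 ± 0.22, adjusted p = 0.00598), and the male 27 h pools 5.99 and 6.31 after TCPOBOP and 3.08 and 3.04 after vehicle. The second difference was lost without TCPOBOP pool 1. In both regions the vehicle pools of both 27 h experiments were below the vehicle pools of both 3 h experiments.

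**Figure D5:**
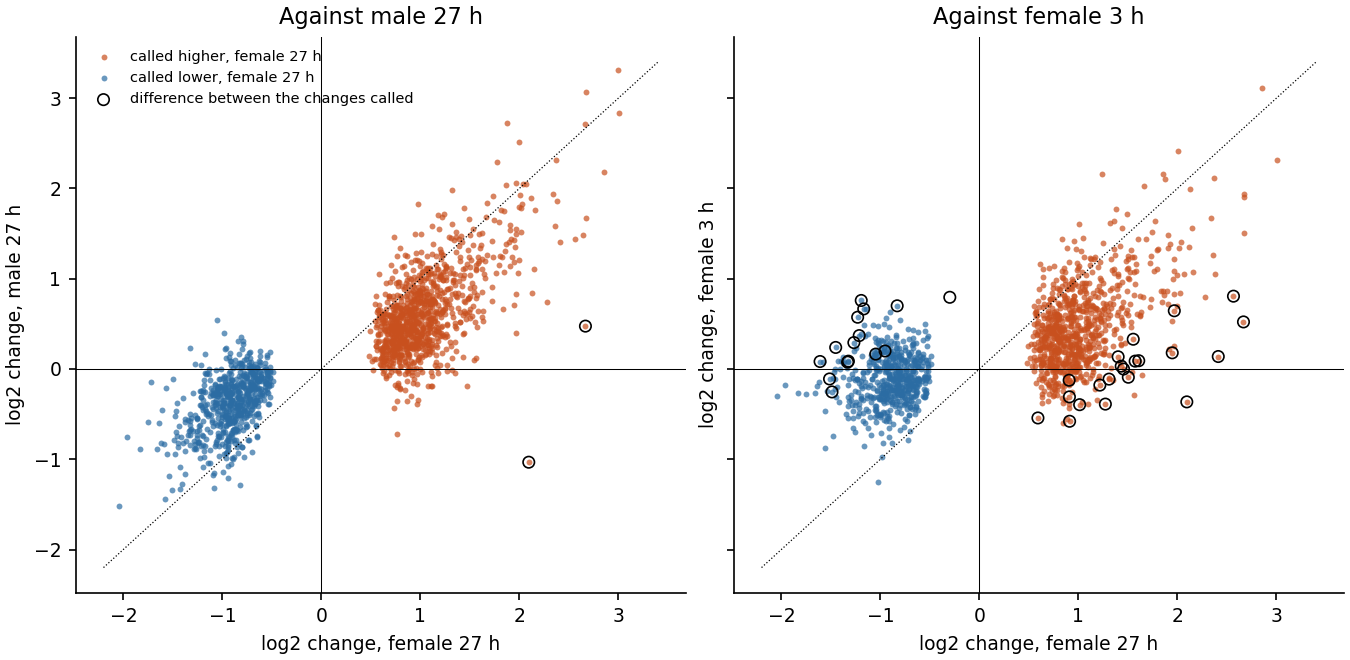
Log2 change (TCPOBOP over vehicle) of 27 h males (left) and 3 h females (right), on the y axes, against that of 27 h females, on the x axes, at regions called in the 27 h females or for the difference, with regions whose difference passed the test circled and equality as a dotted line. Most points lie nearer 0 on the y axes, which follows in part from choosing regions by their female 27 h values. There are 2 circled on the left and 36 on the right.

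The female 27 h vehicle pools could also be set beside the 6 vehicle pools of the other experiments. Of the 757 higher regions with a peak in all 8 vehicle pools, both TCPOBOP pools lay above the 6 at 59.0%, against 19.1% of all tested regions with such peaks, and both female 27 h vehicle pools lay below them at 35.1%, against 16.6%. Of the 546 lower regions, both TCPOBOP pools lay below the 6 at 64.1%, against 20.9%, and both female 27 h vehicle pools above them at 27.1%, against 16.8%. The regions were called from the same female 27 h pools. Larger shares than over all tested regions follow in part from that choice, and these values are a description.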

How the data were processed

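DNase-seq peak lists of 16 liver pools (8 groups of 2) were used, each called on its own. Per the submitters' processing notes, Bowtie aligned the reads to mm9, and peaks called with MACS2 2.1.0.20150731, per the file headers, at q 0.05 with 50 bp tags, shift -100, extension 200 and no control. The deposited pileup is a signal that the authors did not scale to depth. The deposited fold enrichment is a ratio to local background, and −log10 of the p-value and q-value are the authors' own. The heading of 1 TCPOBOP list names another experiment; its peak names and command line read G144_M10, as used. Each list lacked 479 to 500 peak numbers, by a filter not given in the sources used here.

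Peaks overlapping by 1 bp were merged. Log2 pileup per 1000000 tags, centred on regions found in all 16 pools, was tested with limma 3.58.1 in R 4.3.3 (all 16 pools, trended prior), and adjusted over all tested regions. An exact permutation test of 2 against 2 pools cannot go below 0.333. Python 3.11.15 and pandas 2.3.3 were used, with overlaps checked in bedtools 2.31.1 and the fit tested on simulated data.

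Named are the 12 largest changes in each direction called without any 1 pool, the 6 highest-ranked strong gained and lost peaks, the longest runs of 3 or more calls with gaps up to 50 kb, and for listed genes the region of lowest p; further regions at these loci and among the differences were chosen after their values were seen. The members and lists were chosen with earlier results of these data known. The 60 genes were placed on mm9 from general knowledge, not from the files, and 1 more gene of the female-biased list is not reported here. Alternatives covered centring, the spread and its prior, fold enrichment, a stricter q, merging, sex chromosomes, rank and overlap limits, a replicate block and each pool left out.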

Additional observations from a re-analysis of the deposited data

Results flagged for a closer look

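At 10 regions named in the report the change at 27 h in females differed from that in another experiment by the limma test of the difference itself, after adjustment. Differences are those of females at 27 h minus the other experiment. Against males at 27 h the difference was log2 2.19 at chr12:63870068-63871129 and 3.13 at chr12:64118600-64119481. Against females at 3 h it was 2.15 at chr12:63870068-63871129 (adjusted p = 0.000172) and 1.76 at chr11:62748229-62749096 (adjusted p = 0.0257), both among the largest rises. It was 2.46 at chr12:64118600-64119481 (adjusted p = 0.036) and -1.09 at the G6pc locus, chr11:101239881-101241039 (adjusted p = 0.0436). It was -1.69 at chr1:93884925-93886012 (adjusted p = 0.0436), among the largest falls. In the first histone stretch it was 2.28 at chr13:22010619-22011563, 1.40 at chr13:22031982-22033209 and 1.42 at chr13:22107073-22107907 (adjusted p = 0.00985). In the second it was 1.22 at chr13:23528768-23530790 (adjusted p = 0.0491) and 1.60 at chr13:23558740-23559254 (adjusted p = 0.036).

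At chr1:93884925-93886012 the female 27 h pools had 0.806 and 0.969 after TCPOBOP and 3.26 and 2.23 after vehicle, and the female 3 h pools 2.25 and 1.5 after TCPOBOP and 1.85 and 1.63 after vehicle. At chr11:62748229-62749096 the female 27 h pools had 6.87 and 5.21 after TCPOBOP and 1.05 and 0.972 after vehicle, and the female 3 h pools 5.46 and 8.46 after TCPOBOP and 3.89 and 3.89 after vehicle. At chr12:64118600-64119481 the female 3 h pools had 3.59 and 5.73 after TCPOBOP and 4.35 and 7.84 after vehicle. Of the 12 differences, 3 kept their call in all 4 fits without 1 pool: both at chr12:63870068-63871129 and that at chr13:22010619-22011563. That at chr13:22031982-22033209 was lost without TCPOBOP pool 1, that from males at chr12:64118600-64119481 without vehicle pool 1 or TCPOBOP pool 1, that from 3 h females there without vehicle pool 1 or either TCPOBOP pool, and that at chr13:22107073-22107907 without either TCPOBOP pool. Those at chr11:62748229-62749096, at G6pc and at chr13:23558740-23559254 were lost without vehicle pool 2 or either TCPOBOP pool, that at chr1 without vehicle pool 1 or either TCPOBOP pool, and that at chr13:23528768-23530790 in all 4 fits. With 2 pools a group, no search for a single pool far from the others was possible.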

How the results depend on the processing

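The 2 pools a group and the shallow vehicle pool 2 limit these results. Of 980 higher and 669 lower calls, fold enrichment left 45 and 28, leaving out 1 pool left 423 to 786 and 210 to 676, and no centring left 362 lower. Gained and lost peaks numbered 1875 and 1152 with lists of equal length, and 4342 to 6763 and 1353 to 3740 without 1 pool. Strong gained peaks numbered 32 among the 10000 highest-ranked and 303 to 546 without 1 pool. Strong lost peaks numbered 56 at −log10 q of at least 5, 0 among the 10000 highest-ranked and 82 to 126 without 1 pool. The 2 differences from males numbered 1 without a trend in the prior, 0 by fold enrichment and 1 to 6 without 1 pool. The 36 from 3 h numbered 13 with the spread of the pools compared, 9 without a trend, 0 by fold enrichment and 5 to 41 without 1 pool. The cause was not tested.

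Reversed by fold enrichment were the regions of lowest p at Cyp2b10 (log2 -0.0891), Cyp1a1 and Cyp1a2 (-0.071), Cyp2c29 (-1.31), Aldh1a1 (-0.18), Cyp3a11 (-0.0476), Cyp7a1 (0.0085) and Nr0b2 (-0.10). Of 50 named regions 41 kept direction and call in every setting other than fold enrichment, by which 7 kept it and 36 lost the call. Of 12 named differences 3 did, and 0 by fold enrichment, by which that at G6pc reversed (0.16). The 12 largest changes in each direction were named only if called without any 1 pool. Those fits are among the settings, so 41 of 50 does not measure the stability of calls in general. Pool numbers pair no pools by the labels. Over the tested regions, the log2 difference of pool 1 from pool 2 was compared between the groups. Its correlation between the TCPOBOP and the vehicle group was -0.03. A replicate block gave 945 higher and 663 lower calls and 2 and 36 differences.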
